A study of Mus musculus with 4 samples.

Results

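The clustered protocadherin interval on mouse chromosome 18 was taken as positions 36800000 to 38100000 in the coordinates of the arrays, a stretch of 1.3 Mb set to be wide enough for the alpha, beta and gamma clusters. It held 1566 of the 236686 usable probes of the promoter array that covers this chromosome, and the rest of chromosome 18 held 10106. Probes were assigned to it by position. RefSeq lists 14 alpha, 22 beta and 22 gamma protocadherin genes on chromosome 18 in assembly GRCm38.p6. The array files name no gene and the build of their coordinates was not given in the sources used here, so no probe was assigned to a gene and the name of the interval could not be checked against the data.

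The study measured where p53 binds chromatin in R1E cells, an embryonic stem cell line of the mouse, with and without DNA damage. Both groups were R1E cells in growth medium with 1000 units/ml leukaemia inhibitory factor, a cytokine that keeps such cells undifferentiated. One group was left untreated and the other received 0.5 µM adriamycin, a drug that damages DNA, each for 8 h before fixation. For the immunoprecipitation 10 µg of an antibody to p53 was used, and the precipitated DNA (IP, labelled with Cy5) was hybridised together with input DNA (labelled with Cy3) without a dye swap. Chromosome 18 lies on the second of 2 array designs, which was hybridised once per condition, so no test and no p-value were possible. Array and treatment cannot be told apart, and no precipitation without p53 or with a control antibody was analysed here.

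Clustered protocadherins are adhesion proteins of the cell surface that give single neurons a molecular identity. Their genes lie side by side in large arrays of variable exons, each with a promoter of its own, and a neuron uses only some of these promoters. p53 is a transcription factor that is stabilised after DNA damage and then activates genes of cell cycle arrest, repair and apoptosis. In embryonic stem cells it is also present without added damage.

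Each value below is a log ratio, log2 of IP over input signal minus the median of that array, so 0 is the typical probe and 1 is 2-fold above it. Probes were placed in groups around promoters, called tiles here, in which neighbouring probe starts lie at most 1000 bp apart. The interval had 71 tiles. The widest stretches without a probe were 130.5, 122.0, 113.1 and 110.9 kb, and binding inside them was not measured. A window is a run of 3 neighbouring probes that spans at most 1000 bp, and it was called bound when its mean and at least 2 of its probes reached 1. Errors printed with a window are standard deviations (SD) over its 3 probes, which share an array and are not replicates.

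Over all its probes the interval stood slightly above the rest of its chromosome without treatment. In the untreated array its median log ratio was 0.19 (quartiles -0.57 and 0.96), against 0.00 (-0.59 and 0.69) for the rest of chromosome 18. In the adriamycin array the median was 0.03 (-0.51 and 0.69), against 0.00 (-0.46 and 0.57). These medians lie close together beside the spread of single probes, whose SD in the interval was 1.21 without and 1.01 with adriamycin. The upper quartile showed the interval's excess in both arrays, the lower quartile in the untreated array only.

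Bound windows were more frequent in the interval than elsewhere on the chromosome. In the untreated array 248 of 1345 windows were bound, 18.4% with an exact 95% binomial interval of 16.4% to 20.6%, against 12.2% on the rest of chromosome 18 and 9.6% on the whole design. In the adriamycin array 230 windows were bound, 17.1% with an interval of 15.1% to 19.2%, against 13.8% and 10.5%. In both arrays together 190 windows were bound, 14.1% against 9.45% on the rest of the chromosome and 6.82% on the design. Neighbouring windows share probes, and these intervals cover counting error only. With the sign of the rule turned, 67 windows (4.98%) were depleted in the untreated array against 4.15% on the rest of chromosome 18 and 3.92% on the design. With adriamycin 51 (3.79%) were depleted against 1.9% and 2.06%. The exact 95% binomial interval of the untreated depleted share, 3.88% to 6.28%, holds both of the shares set against it. That of the adriamycin share, 2.84% to 4.96%, lies above both, again for counting error only. Bound windows outnumbered depleted ones in the interval, as they did on the rest of chromosome 18 and on the design.

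**Figure D1:**
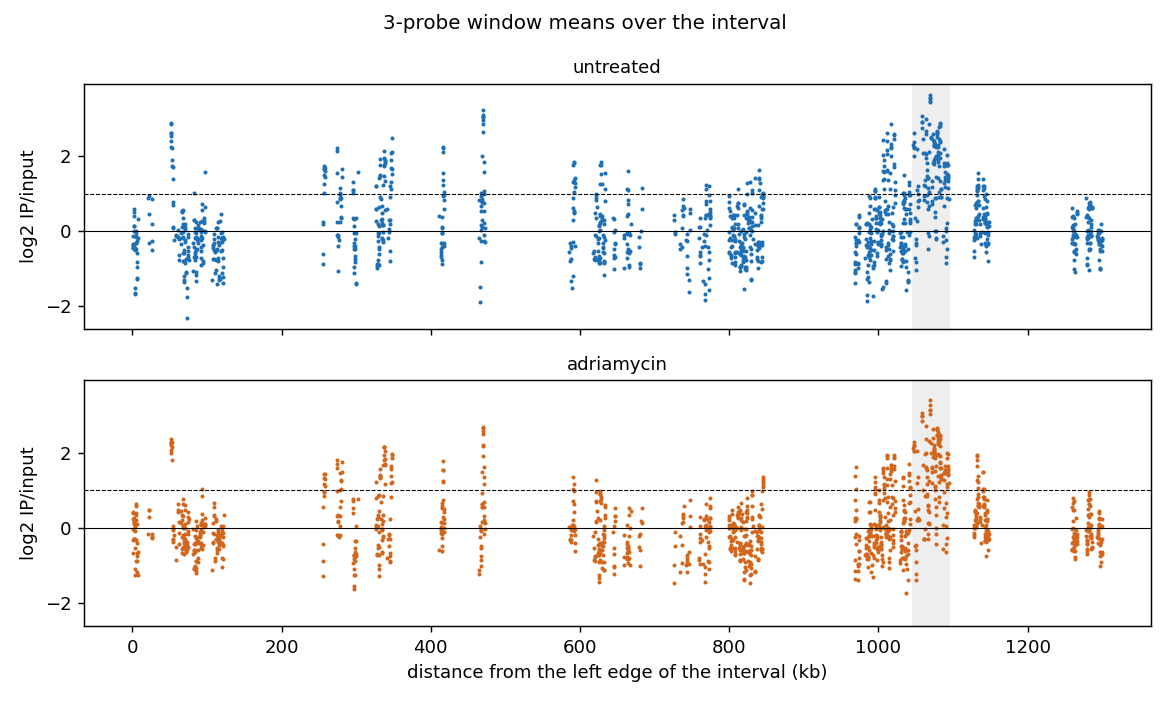
Mean log2 IP over input of every 3-probe window, relative to the array median, against the distance from the left edge of the interval in kb, with the untreated array above and the adriamycin array below. The dashed line marks the bound threshold of 1 and the shaded band marks a run of 4 neighbouring tiles whose windows reach 3.64 without and 3.40 with adriamycin; empty stretches hold no probe.

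Enrichment was uneven along the interval. In steps of 100 kb from its left edge, the step from 1000 to 1100 kb had the most bound windows, 135 of 300 (45.0%) without and 137 (45.7%) with adriamycin. Its median log ratio was 0.98 without and 0.90 with adriamycin. A second enriched stretch lay further left. From 200 to 300 kb 32.2% of windows were bound without and 23.7% with adriamycin, from 300 to 400 kb 31.5% and 34.2%, and from 400 to 500 kb 24.6% and 23.1%. Between 600 and 900 kb the 3 steps had bound shares of 9.71%, 4.11% and 6.41% in the untreated array and of 0.97%, 0% and 3.85% with adriamycin. No window was bound in either array from 100 to 200 kb and from 1200 to 1300 kb.

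Input signal and probe length varied along the interval without following the bound shares in one direction. Between 600 and 900 kb, where few windows were bound, the median untreated input was -1.35, -1.13 and -0.74 (log2, relative to the array median), and 71.3% to 72.9% of probes had the full length of 60 bases. The enriched steps from 200 to 500 kb were dim as well, at -0.67, -0.82 and -0.44, with 63.4%, 66.3% and 44.6% of 60-base probes. From 1000 to 1100 kb the input was 0.10 and 50.6% of probes had 60 bases. Both steps without a bound window had input above the median, 0.24 from 100 to 200 kb and 0.31 from 1200 to 1300 kb, and the latter had the fewest 60-base probes, 20.7%. Such arrays trim probes toward a common melting temperature, so probe length follows base composition. Across the interval, 53.6% of probes had 60 bases, against 46.7% on the rest of chromosome 18. Within each length class the interval stood above the rest of the chromosome. Its 60-base probes had medians of -0.15 and -0.24 in the untreated and adriamycin arrays, against -0.30 and -0.31, and its shorter probes had 0.51 (untreated) and 0.40 (adriamycin), against 0.26 and 0.29. The interval's medians include the run described below. Without it they were -0.23 and -0.30 for 60-base probes and 0.39 and 0.27 for shorter ones. That run was picked for its high values, so leaving it out lowers them by construction. The part of base composition in the levels beyond these classes was not tested.

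The strongest feature was a run of 4 neighbouring tiles at 37846386 to 37894350, 47965 bp with 167 probes, in each of which the untreated median reached 1. It was picked out after its values were seen, so its levels are a description. The median of its probes was 1.66 (SD 1.20) without and 1.49 (SD 1.13) with adriamycin. Of these probes, 104 (62.3%) were at 1 or more in both arrays, against 9.64% of probes on the rest of chromosome 18. From left to right the 4 tile medians were 1.01, 2.02, 1.98 and 1.24 without adriamycin and 0.88, 1.53, 1.92 and 1.34 with it. The middle pair was the highest in either array, and the tile on the left fell just short of 1 with adriamycin.

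Levels were lower just left of the run. This follows from the rule, since a ranked tile within 5000 bp ends a run only with an untreated median below 1. The tile just before the run, 37839000 to 37843221, had medians of 0.42 without and 0.44 with adriamycin. The next ranked tile after the run, 37927077 to 37938758, had 0.25 and 0.40. It lies more than 5000 bp further right, so it does not show the level just past the right edge of the run. Among tiles of at least 10 probes, joined when at most 5000 bp apart, design 2 had 331 such runs in the untreated array and 312 in the adriamycin array. A single tile counts as a run here, and only 5 runs in each array had 2 or more tiles. No run was wider than this one in either, and it was the only one with 3 or more tiles in the untreated array. In the adriamycin array its 3 tiles from 37857705 to 37894350, 36646 bp, likewise formed the only run of 3 or more. The number of groups of 3 or more neighbouring tiles at any level was not counted. The part of tile layout in this rank was not tested.

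**Figure D2:**
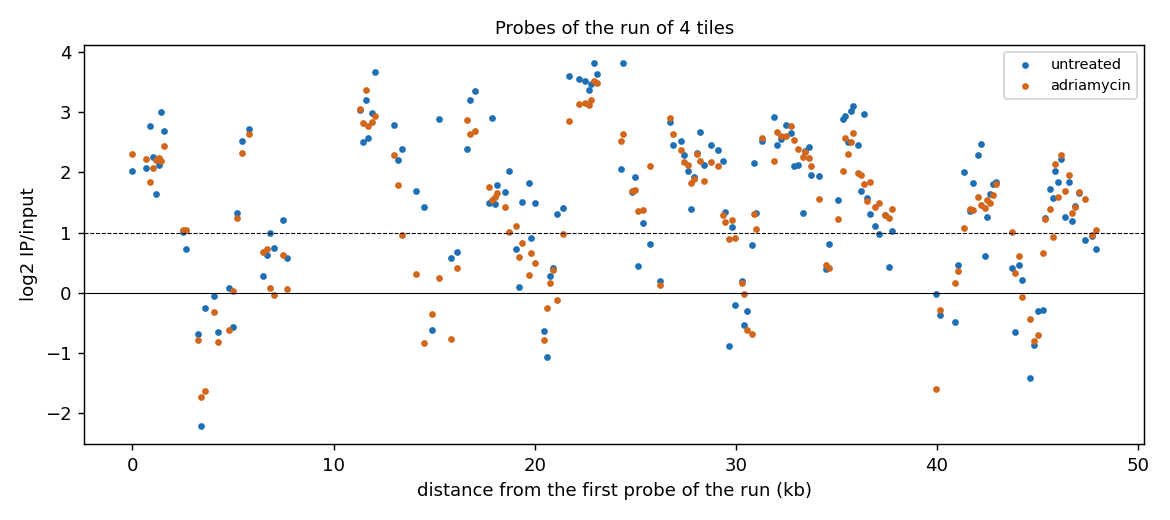
Log2 IP over input of each of the 167 probes of the run, relative to the array median, against distance from its first probe in kb, with the untreated array in blue and the adriamycin array in orange. Most probes lie above the dashed threshold of 1 in both arrays, in several peaks parted by probes near or below 0.

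The signal inside the run came as a series of peaks. Joining bound windows that shared bases or were at most 500 bp apart gave 10 bound regions there, all of them bound in both arrays, which covered 62.2% of its length. They were 773 to 7033 bp wide, and their best windows were 1.75 to 8.70 kb apart, with a median of 4.07 kb. Their best windows reached 2.03 to 3.64 without and 1.47 to 3.40 with adriamycin. Of the windows of the run, 100 of 151 (66.2%) were bound in each array and 91 in both; none was depleted in the untreated array and 2 with adriamycin. The arrays tracked each other along the run, with a correlation over its 167 probes of 0.86 against 0.65 over all 1566 probes of the interval, which share input composition and probe design between arrays.

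Median input over the run lay above the array median, at 0.42 without and 0.30 with adriamycin, against -0.30 in both arrays over the interval. Its tile with the highest untreated log ratio, 37857705 to 37869558, had input below the array median, at -0.14 without and -0.11 with adriamycin. The median IP signal of the run lay at 2.20 and 2.05 on the same kind of scale, against -0.17 and -0.22 over the interval. Only 1 of its IP spots was not well above background in the untreated array and none with adriamycin. Levels in the run differed by probe length class. With adriamycin the medians were 0.91 for 60-base probes, under the threshold of 1, and 1.81 for shorter probes. Without adriamycin the 60-base probes were likewise the lower class. Both adriamycin medians lay above those of the same classes on the rest of chromosome 18, -0.31 and 0.29. The part of probe length or base composition in the level and peaks of the run was not tested. With all probes of the design ranked by untreated input into 4 equal classes, the 28 probes of the run in the dimmest class had medians of 0.69 and 0.28, and the 47 in the brightest had 2.02 and 2.03.

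The run held 11.2% of the interval's windows and 40.3% of its bound windows without adriamycin, and 43.5% with it. Of the 1194 other windows of the interval, 148 (12.4%, 10.6% to 14.4%) were bound in the untreated array and 130 (10.9%, 9.18% to 12.8%) with adriamycin. The median log ratios of the other probes were 0.06 and -0.05. Since the run was picked for its high values, these remainders are lower by construction, and they are not set against the rest of the chromosome, from which nothing was taken out. At a threshold of 2 the run had 51 bound windows (33.8%) without and 43 (28.5%) with adriamycin, and the other windows 36 and 17.

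**Figure D3:**
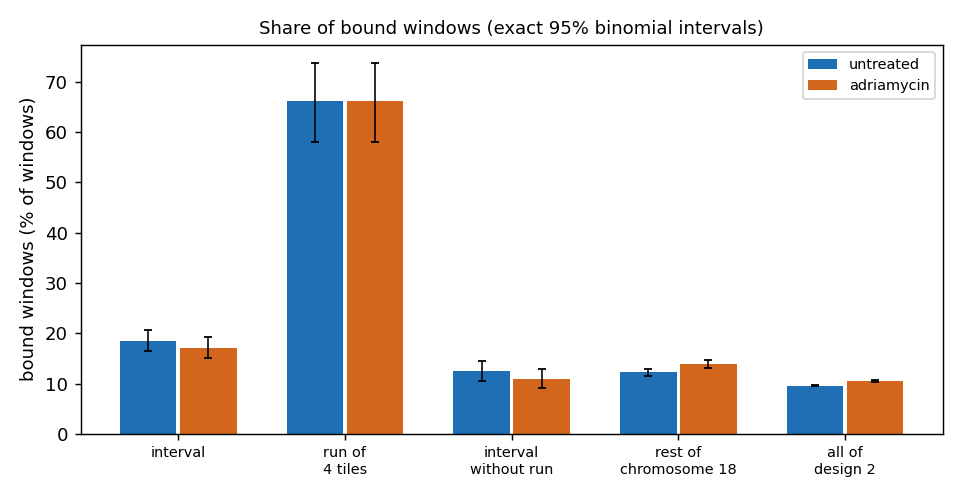
Share of 3-probe windows called bound in the untreated (blue) and adriamycin (orange) arrays for the interval, the run of 4 tiles, the interval without the run, the rest of chromosome 18 and the whole design, in percent, with exact 95% binomial intervals for counting error. The run stands at 66.2% in both arrays and the other windows of the interval at 12.4% and 10.9%; the run was picked after its values were seen.

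Tile medians gave the same order at a coarser scale, on small counts that came mostly from the run. Of 44 tiles with at least 10 probes, 6 (13.6%) had an untreated median of 1 or more, against 7.08% of 353 such tiles on the rest of chromosome 18 and 4.25% on the design. In the adriamycin array 4 (9.09%) did, against 5.67% and 4%. The run, picked for its high values, supplied 4 of the 6 untreated tiles and 3 of the 4 adriamycin tiles. The tiles with the highest untreated medians were 37857705 to 37869558 (43 probes; 2.02, and 1.53 with adriamycin), 37870685 to 37884212 (62 probes; 1.98 and 1.92) and 36851248 to 36856029 (22 probes; 1.75 and 1.64). The first pair lies in the run, and the third stands alone near the left edge. They were not the highest of their chromosome, where 9, 10 and 11 tiles had higher untreated medians. Besides the third, the only tile outside the run with an untreated median of 1 or more was 37054294 to 37058663, with 1.12 without and 0.91 with adriamycin.

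At the other end, the tile 37385541 to 37388406 (11 probes) had an untreated median of -0.87, and -0.04 with adriamycin. The tile 37767678 to 37770766 (17 probes) had -0.71 and 0.12, and 36905080 to 36922404 (57 probes) had -0.61 and -0.25. All 3 were higher with adriamycin, but they were chosen as the lowest of the untreated array, which favours that direction. The first had a median untreated input of -2.43. Over the 44 tiles the difference between arrays ranged from -0.75 to 0.74, and the medians of both arrays correlated at 0.84, against 0.85 over the 353 tiles of the rest of the chromosome.

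**Figure D4:**
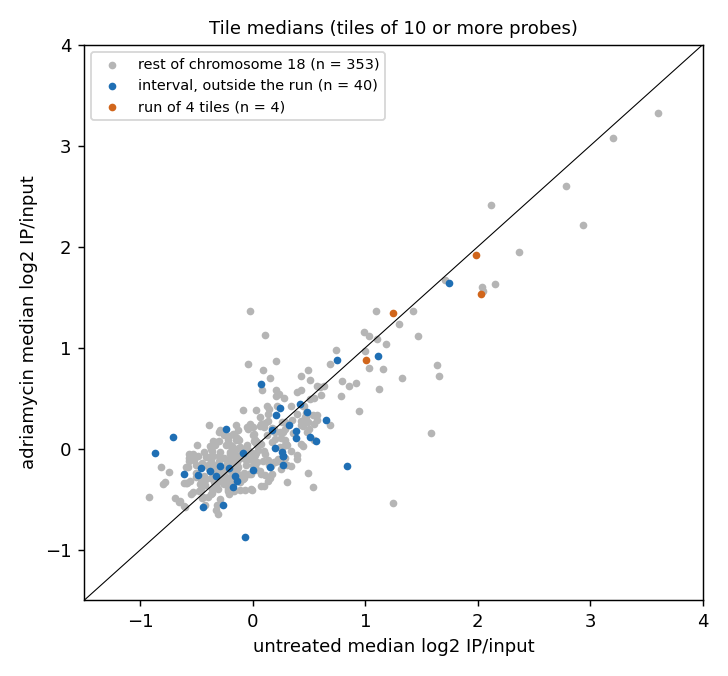
Median log2 IP over input of each tile of at least 10 probes on chromosome 18, untreated on the horizontal and adriamycin on the vertical axis, with the 353 tiles outside the interval in grey, 40 tiles of the interval in blue and the 4 tiles of the run in orange. The tiles of the run lie near the diagonal of equal values, and grey tiles reach higher, up to 3.60 untreated and 3.33 with adriamycin.

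Merging the bound windows of both arrays gave 52 regions in the interval, covering 78779 bp, with a median width of 1273.5 bp against 855.5 bp over the 274 regions of the rest of chromosome 18. Regions of 3000 bp or more numbered 4 (7.69%) against 9.85% and, on the design, 7.24%. Of the 52 regions, 30 were bound in both arrays, 15 in the untreated array alone and 7 in the adriamycin array alone. The 30 shared regions were the wider ones, with a median width of 1895.5 bp against 579 and 521 bp for the regions of a single array. A region counts as shared when each array has a bound window anywhere in it, which favours wide regions.

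The 5 highest regions, ranked by the mean of both arrays in their best window, were strongly enriched with and without adriamycin. This ranking itself favours high values in both arrays. The highest region was 37867319 to 37869558 in the run. The 3 probes of its best window read 3.46, 3.82 and 3.64 without and 3.20, 3.51 and 3.49 with adriamycin, means of 3.64 ± 0.18 and 3.40 ± 0.18 (SD over 3 probes), or 12.4-fold and 10.6-fold above the array median. The probes of both arrays overlap in range, while each of the 3 was lower with adriamycin, by -0.26, -0.30 and -0.15, a difference of -0.24 ± 0.08.

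The region 37857705 to 37858477, also in the run, had 2.91 ± 0.37 without and 3.08 ± 0.27 with adriamycin. The region 37862501 to 37866471 had 2.98 ± 0.51 and 2.73 ± 0.13. The widest region of the interval, 37877180 to 37884212 with 7033 bp, had 2.87 ± 0.33 and 2.49 ± 0.18. Only 1 of the 5 lay outside the run, 37269021 to 37271260, with 3.24 ± 0.34 without and 2.57 ± 0.32 with adriamycin. All 5 stayed within 1 log2 unit between the arrays under the main setting and all 8 alternatives of the values. In the main setting 4 of the 5 were lower with adriamycin, but this direction depends on scaling. With normexp background correction all 5 were higher, by 0.25 to 0.83, and with both arrays scaled to equal spread only 1 was lower. The highest region of the whole design, at 39456527 to 39456882 of chromosome 17, reached 5.52 and 4.91.

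Adriamycin came with few increases here. Probe by probe, the median difference, adriamycin minus untreated, was -0.05 in the interval against 0.08 on the rest of chromosome 18 and 0.08 on the design. The IP signal differed by a median of -0.14 in the interval and -0.05 on the rest of the chromosome, and the input by -0.03 and -0.04. Of the 52 regions, 1 (1.92%, 0.0487% to 10.3%) was higher by 1 or more with adriamycin, against 11.3% on the rest of chromosome 18 and 11.1% on the design. The upper bound of that interval lies under both shares. It covers counting error only, and the regions share 1 array per condition and are not replicates. The share in the interval was below that of the rest of chromosome 18 under each alternative run on the region counts, though the counts are small. Its upper bound passed the rest's share with loess (2 of 54 regions, 3.70% with an upper bound of 12.7%, against 5.91%), with 5-probe windows (1 of 34, upper bound 15.3%, against 8.07%), at a threshold of 2 (0 of 22, upper bound 15.4%, against 14.7%) and without the run (1 of 42, upper bound 12.6%). With normexp 4 of 27 were higher (14.8%), against 48.2%. In the other direction 10 regions (19.2%, 9.63% to 32.5%) were lower by 1 or more, against 19.7% and 26%. The remaining 41 changed by less. The median difference over regions was -0.39, against -0.03 on the rest of the chromosome, and was -0.24 in the run and -0.51 outside it.

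The region that was higher with adriamycin was 37769057 to 37769746, which lies in a tile that was among the lowest without treatment. Its 3 probes read -0.47, 0.46 and 0.60 without and 1.63, 2.04 and 1.17 with adriamycin. All adriamycin probes lay above all untreated ones, in a region that was listed for being bound with adriamycin alone and for the size of its rise, which favours such a separation. The mean moved from 0.19 ± 0.58 to 1.61 ± 0.43, a difference of 1.42 ± 0.78, or 2.68-fold. The IP signal was higher by 1.28 and the input differed by -0.10, so the difference sat in the IP channel.

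The 5 regions with the largest falls were all bound in the untreated array alone, which favours a fall, and in 4 of the 5 the input channel differed by more than the IP channel. Their 3 probes were uneven, with SDs of the difference from 1.16 to 1.90. The region 37429605 to 37430006 read 1.25 without and -1.07 with adriamycin, a difference of -2.32; its IP signal differed by -0.33 and its input by 2.04. The region 37627786 to 37628108 read 1.31 and -0.92, while its IP signal differed by -0.71 and its input by 1.56. For 37634951 to 37635554 the values were 1.42 and -0.74, with IP and input changes of -0.79 and 1.42. All 3 lay on dim input, at the 1.43, 3.31 and 3.44 percentiles of untreated input over the windows of the design.

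The region 37463377 to 37464282 read 1.61 without and -0.54 with adriamycin, and here the IP change of -1.59 exceeded the input change of 0.60. Its untreated input was at the 0.568 percentile, and 3 of its spots were not well above background in one array or the other. The region 36854133 to 36854612, near the left edge, read 1.71 and 0.06, with its IP signal differing by -0.70 and its input by 1.00. Over all 10 lower regions the untreated input had a median of -2.01 and the input change a median of 1.18, against an IP change of -0.58. The 41 regions that changed by less had a median untreated input of 0.73.

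Split by untreated input, 17 regions lay below the array median and 9 of these were lower with adriamycin. Of the 35 at or above it, 1 was lower and 1 higher. The lower one of these was 37815670 to 37817260, which moved from 2.86 to 1.68 and stayed bound in both arrays; it is named here after its values were seen. In the dimmest of the 4 classes of untreated input, probes of the interval had a median difference of -0.53, and those of the rest of chromosome 18 had -0.46. In the other classes, from dim to bright, the interval had -0.05, 0.02 and 0.14, against -0.03, 0.19 and 0.33. Input is the denominator of the ratio, so dim untreated input itself favours a high untreated ratio and a fall. The split of the regions therefore does not measure the part of input in the lower calls, which was not tested.

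**Figure D5:**
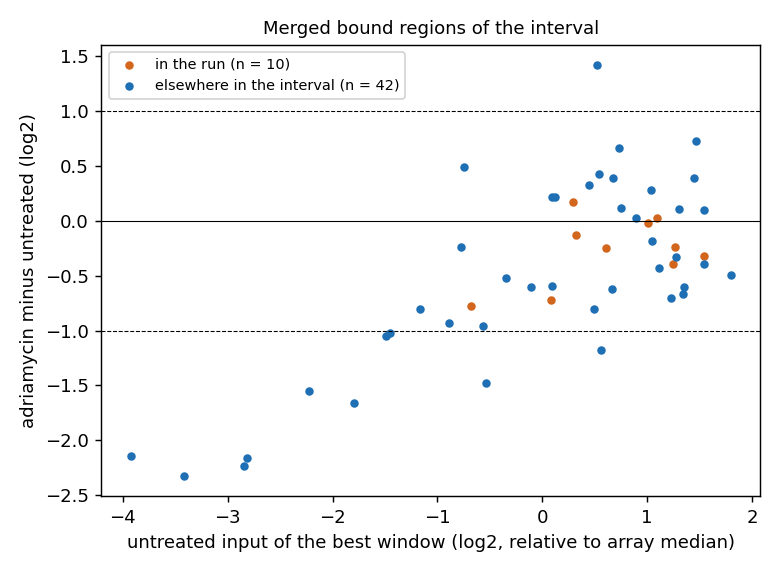
Difference between arrays, adriamycin minus untreated log2 IP over input, against the untreated input signal of the best window (log2, relative to the array median) for the 52 merged bound regions of the interval, with those of the run in orange and dashed lines at a change of 1 in either direction. Of the 10 regions under -1, 9 have input below the array median, and the 10 regions of the run lie between -0.78 and 0.17.

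The 10 regions of the run differed between arrays by -0.78 to 0.17, and 8 of the 10 values were below 0. The most negative were 37859401 to 37861694, from 2.46 ± 0.30 to 1.68 ± 0.68, and 37887424 to 37890171, from 2.19 ± 0.33 to 1.47 ± 0.12. The input was higher with adriamycin in both, by 0.39 and 0.58. The region 37870685 to 37876265 had 2.60 ± 0.20 without and 2.63 ± 0.27 with adriamycin, and 37891647 to 37894350 had 2.03 ± 0.19 and 2.01 ± 0.36. Over its probes the run had a median difference of -0.10. No region of the run reached a change of 1 in either direction; 0 of 10 allows a share of up to 30.8% (exact 95% binomial interval), which holds the 11.3% higher and 19.7% lower of the rest of the chromosome. The sign of the run's median difference turned with normexp (0.54), equal spread (0.20) and centring on the mode (0.029).

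Left of the run, a looser series of bound regions continued in the tile 37792259 to 37822772, whose median was only 0.39 without and 0.18 with adriamycin. It held 37805853 to 37807743 with 2.42 and 1.46, 37810995 to 37812479 with 2.62 and 1.91, 37815670 to 37817260 with the 2.86 and 1.68 given above, and 37820143 to 37822190 with 2.57 and 1.95. Right of it 37931862 to 37933761 had 1.21 and 1.94. Regions of the second enriched stretch included 37073214 to 37074535 with 2.15 and 1.82, 37136324 to 37139345 with 1.95 and 2.17, 37146143 to 37148692 with 2.47 and 1.98, and 37215774 to 37217092 with 2.21 and 1.79. These 9 were named after their values were seen, all were bound in both arrays, and 1 of them, 37815670 to 37817260, changed by 1 or more.

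Many of these values move with the processing. With normexp background correction the untreated bound share was 3.12% in the interval and 3.61% on the rest of chromosome 18, so the order of those 2 shares turned. At a threshold of 2 it turned in the adriamycin array, with 4.46% against 5.02%. Negative control spots lay at 0.95 (untreated) and 0.58 (adriamycin) above the array median, so spots near background can come close to the bound threshold.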

How the data were processed

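Scanner files of 4 arrays were given, and the 2 of the second design, 1 per condition, were used. Per the file headers, the authors read the scans with Agilent Feature Extraction (version 10.1.1.1). The deposited processed intensities had background taken off and a linear dye factor applied, with no lowess. The deposited log10 ratio was used only as a check. The value table deposited by the authors is in log2, and all 234099 and 234830 values compared (untreated, adriamycin) equalled, within 1e-06, the ratio of background-subtracted spot medians. Its medians were -0.93 and -0.45, so it is not centred. The genome build was not given in the sources used here.

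Control spots (6301 of 243486) and outlier flags in either array were left out, and log2 IP over input was centred on each array's median, without loess or quantile steps (Python 3.11.15, pandas 2.3.3, limma 3.58.1 for alternatives). The scripts were tested on simulated data. The number of arrays limits the precision. Best windows of merged regions, by the mean of both arrays, gave the difference. Regions were named by rule: the 5 highest, up to 5 with the largest change each way, and the 3 highest and 3 lowest tiles of the untreated array. The interval and lists were chosen with earlier results of these data known. Alternatives covered background correction, normalization, centring, spread, a common input, dim or flagged spots, thresholds, window size, interval limits and input-matched probes.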

Additional observations from a re-analysis of the deposited data

How the results depend on the processing

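With 1 array per condition, signal over background limits the precision: 62 IP spots of the interval were not well above background without adriamycin and 32 with it. No paired analysis was possible because the design has only 1 array of each condition. Of 141 values under alternatives that bear on the comparisons, 88 stayed within the spread set for each and 53 moved.

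With normexp background correction, bound shares were 3.12% (untreated) and 10.5% (adriamycin), 4 regions were higher and 0 lower, the run had medians of 0.52 and 1.01 and a difference of 0.54, and the interval's difference minus that of the rest of chromosome 18 was -0.066. With loess, the adriamycin median was 0.13, or 0.091 above the rest, 11.7% of adriamycin windows were bound, 2 regions were higher, and the run had 1.12 with adriamycin and a difference of -0.19. With the deposited table, the untreated median was 0.080, or 0.073 above the rest, and 3 regions were lower; the fallen region 37429605 to 37430006 had -0.16 in the untreated array, turned from 1.25. With centring on the mode, the untreated median was 0.078, the interval's difference 0.071 and the run's 0.029. With equal spread, these differences were 0.0077 and 0.20, and 2 regions were higher. With a common input, the untreated median was 0.12 above the rest, the interval's difference -0.13 (-0.091 against the rest), the run's -0.34, and 2 regions were higher and 1 lower.

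At a threshold of 1.5, 11.3% and 9.74% of windows were bound and 6 regions lower. At 2, the values were 6.47% and 4.46%, with 0 higher and 1 lower. With 5-probe windows 3 regions were lower, and at a 1.5-fold change 3 were higher and 22 lower. Over 37 to 38 Mb, the medians were 0.33 and 0.14, both also the gap to the rest, with 22.7% and 21.2% bound. Against probes with like input, the gaps were 0.35 and 0.15. Without the run, an alternative added after seeing the data, the medians were 0.058 and -0.046 (gaps 0.057 and -0.047), with 12.4% and 10.9% bound.

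With a common input the 5 largest falls were -1.58 to -0.32, and 1 of 5 reached 1 in size; with normexp they were -0.88 to -0.53. The rise at 37769057 to 37769746 was 1.08 to 1.59 under the 8 alternatives of the values. The 5 highest regions stayed between 1.29 and 3.87. No run of the design was wider than the one here under 6 of these 8 alternatives in both arrays, but it kept 4 tiles in the untreated array in only 2 of the 6 (dim spots left out, outlier flags kept). In the other 4 it had 3 tiles and 36646 bp. Loess left 2 of its tiles joined, with 1 wider run elsewhere, and normexp left none in the untreated array and 2, again with 1 wider run, with adriamycin.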
